A study of Mus musculus with 62 samples.

Results

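Transcripts of 10 neuropeptide precursor genes were followed in brain tissue punches from female mice of the inbred strain C57BL/6, taken from prefrontal cortex and from striatum. The genes are Penk, Pdyn, Tac1, Sst, Npy, Cck, Vip, Crh, Cartpt and Nts. The genes were chosen by name and looked up by mouse Entrez identifier, and all 10 were found among the 17378 genes listed in both brain tables. The mice had been given a mixture of polychlorinated biphenyls (PCBs, persistent industrial chemicals) by mouth. The submitters call it the MARBLES mixture, and the doses were 0.1, 1 and 6 mg/kg, with vehicle as 0. Both regions had 4 libraries from vehicle animals. The 0.1 mg/kg group had 5 libraries per region, and the groups given 1 and 6 mg/kg had 6 each, which makes 42 brain libraries of the 62 in the series. Every group was female and of the same strain. The labels used here give neither the animals' age nor how long they were dosed, and they do not state whether animals were pooled. A number in each library's title recurs in both regions within the same dose group. It is called the animal number here, although the labels do not state that it marks a mouse.

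Neuropeptides are made as longer precursor proteins, cut by prohormone convertases inside dense core vesicles, and released to act on G protein-coupled receptors. In the striatum, projection neurons that carry dopamine D2 receptors make enkephalin from Penk, and those that carry D1 receptors make dynorphin from Pdyn and substance P from Tac1. In the cortex, Sst, Vip and Npy mark classes of inhibitory interneurons, and Cck is made by interneurons and by many excitatory neurons. Crh encodes corticotropin-releasing hormone, Cartpt the CART peptides and Nts neurotensin.

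Several neuropeptide genes are textbook targets of CREB, a transcription factor that binds the cyclic AMP response element, whose full form reads TGACGTCA and whose core reads TGACG. The promoters are shown because Sst is the classic example of a gene with this element. RefSeq promoter sequences of build GRCm38.p6 (250 bases before to 50 after the start) were given for 8 of the 10 genes and were searched on both strands. The full element was present in Sst, beginning 48 bases upstream of the start, and in Cartpt, beginning 112 bases upstream, and in 1.79% of all 32851 promoters. Vip held TGACGTC, 1 base short of it, beginning 79 bases upstream, a form found in 3.21% of promoters (the full element included). Cck, Tac1 and Nts held only TGACG, found in 20.8% of promoters (both longer forms included), and no TGACG was found in the windows of Npy or of either start of Pdyn. Each line gives 50 bases upstream of the start around the match nearest to it, 5′ to 3′ on the gene's strand, with TGACG or its reverse complement CGTCA in capitals.
Sst, chr16:23890862-23890911, minus strand: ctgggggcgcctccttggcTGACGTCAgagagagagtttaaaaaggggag
Cartpt, chr13:99900765-99900814, minus strand: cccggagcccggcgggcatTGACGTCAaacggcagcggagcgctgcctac
Vip, chr10:5639117-5639166, plus strand: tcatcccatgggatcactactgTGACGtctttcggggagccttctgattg
Cck, chr9:121495714-121495763, minus strand: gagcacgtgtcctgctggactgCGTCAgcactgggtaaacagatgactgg
Tac1, chr6:7554996-7555045, plus strand: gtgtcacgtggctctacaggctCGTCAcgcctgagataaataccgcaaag
Nts, chr10:102490557-102490606, minus strand: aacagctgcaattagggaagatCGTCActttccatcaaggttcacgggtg
The RefSeq starts of Sst and Cartpt lie inside the full span of each gene. These matches describe letters in the reference only; binding was not measured here.

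Prefrontal libraries held 8722232 to 12135200 counts and striatal ones 8283032 to 12019651. The striatal 6 mg/kg libraries (8553800 to 9197051) lay below all striatal vehicle libraries (10147296 to 10459212). Levels are in CPM (counts relative to library size) after scaling of the libraries within a region, unless the joined scale of both regions is named. The tissue labels were checked against markers. The summed level of 19 detected markers of striatal projection neurons was 5415 to 11593 CPM in the striatum and 2191 to 5860 CPM in the prefrontal cortex, where Drd1, the D1 receptor, had a median of 84.9 CPM against 136 CPM in the striatum. The summed level of 14 markers of cortical excitatory neurons was 3314 to 5527 CPM in the prefrontal cortex and 959 to 3585 CPM in the striatum, where Slc17a7, the vesicular glutamate transporter of cortical neurons, ranged from 42.2 to 1362 CPM. Choroid plexus markers summed to 22.8 to 4413 CPM in the striatum. The markers are not exclusive to 1 region: of the cortical list, Foxp2 had a median of 27.2 CPM in the prefrontal cortex and 50.6 CPM in the striatum, and of the striatal list, Foxp1 had 135 CPM in the prefrontal cortex and 159 CPM in the striatum. Whether the other region's markers came from local cells or from neighbouring tissue in the punch was not tested.

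In the prefrontal cortex, the order of the 10 genes by mean level per kilobase of their longest transcript was Cck, Sst, Penk, Npy, Tac1, Pdyn, Vip, Cartpt, Crh and Nts. Cck averaged 412 ± 94 CPM per kilobase (SD, n = 21 libraries) and Nts 4.23 ± 2.79. Each gene lay above the next in at least 17 of the 21 libraries, with Cck above Sst in 19, Sst above Penk in 17 and Penk above Npy in 21. In the striatum the order was Penk, Sst, Cck, Npy, Tac1, Pdyn, Nts, Cartpt, Crh and Vip. Penk averaged 626 ± 165 CPM per kilobase (SD, n = 21) and Vip 3.15 ± 1.78. Neighbours in the middle of that order did not separate: Cck exceeded Npy in 11 of 21 libraries and Npy exceeded Tac1 in 10.

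**Figure D1:**
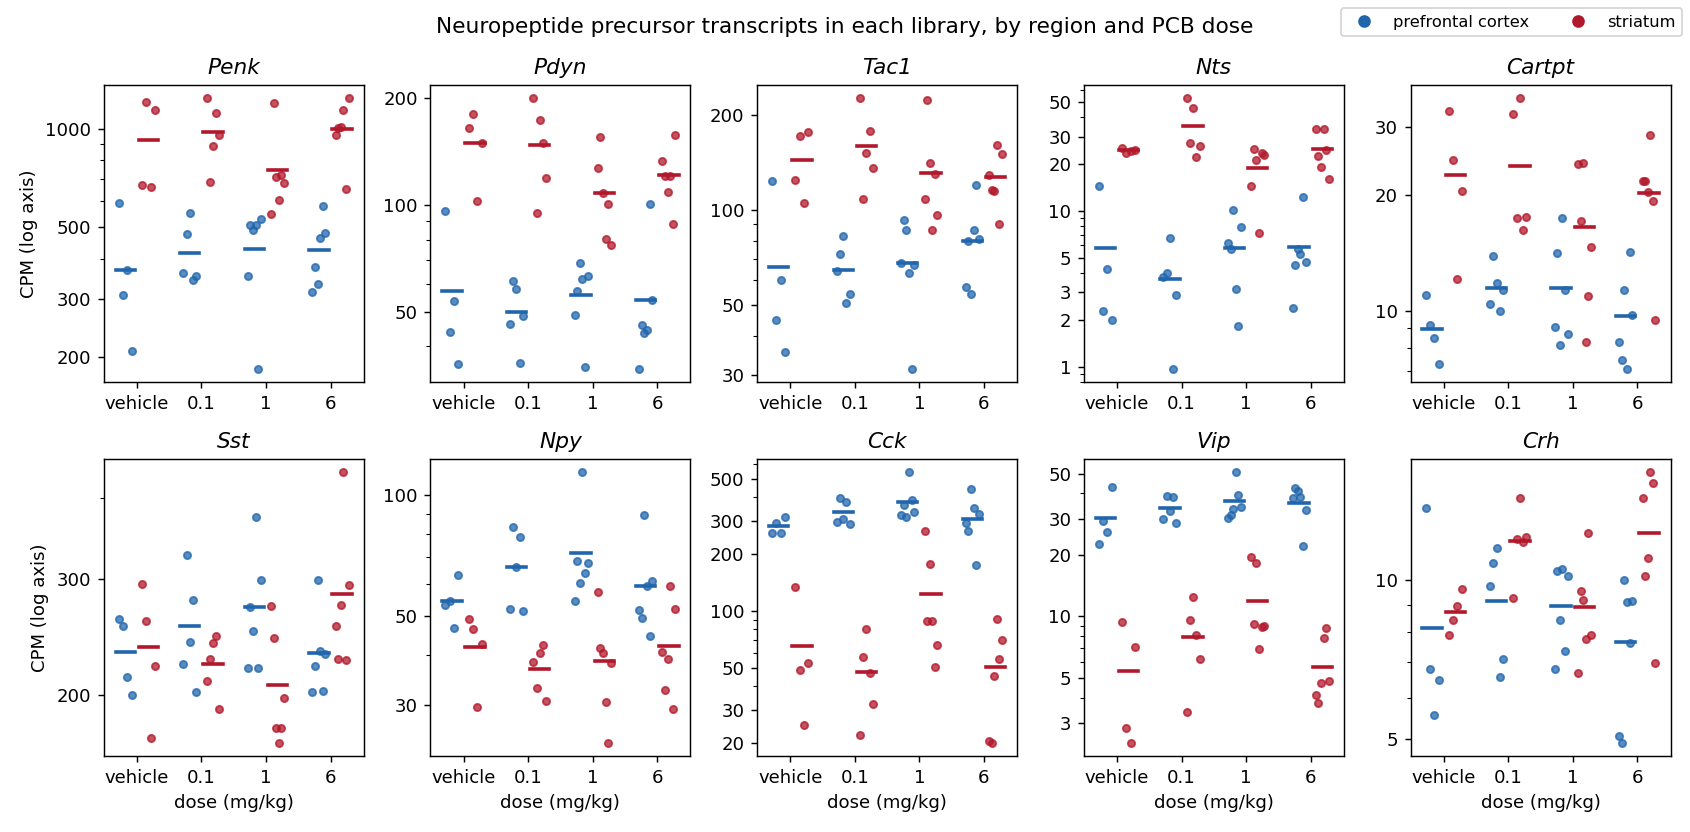
Level of each gene (CPM, log axis) in every library, by dose group on the horizontal axis. Blue points are prefrontal cortex and red points striatum, 1 point per library, and bars are group means. Dose groups overlap within each region, and Vip does not overlap between regions.

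Most members differed between the regions. For this comparison all 42 libraries were scaled together and fitted with edgeR's quasi-likelihood test, with the difference averaged over the 4 dose groups. Of the 10 members, 8 passed an adjusted p of 0.05, 5 higher and 3 lower in the striatum, where 56.1% of the 15402 genes tested passed, so most genes passed and the members' count stands against that background. The median difference was 0.55 on the log2 scale over the members and 0.01 over all genes. DESeq2 also called 8. In bulk tissue, fewer cells of a type and less RNA per cell cannot be told apart.

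Of the genes of striatal projection neurons, Penk (Entrez 18619, chr4:4133536-4138815 in GRCm38.p6, the same assembly as mm10) averaged 880 ± 230 CPM in the striatum and 426 ± 119 CPM in the prefrontal cortex on the joined scale (SD, n = 21 each). Penk was higher in the striatum in 21 of 21 animals, by 1.06 on the log2 scale (SE 0.127, edgeR adjusted p = 4.18e-09). Its ranges still overlapped, from 527 to 1193 CPM in the striatum and from 189 to 609 CPM in the prefrontal cortex. Pdyn (Entrez 18610, chr2:129686549-129699938) averaged 125 ± 33.1 against 55.8 ± 18.3 CPM and was higher in the striatum in 20 of 21 animals, with a log2 difference of 1.18 (SE 0.126). Tac1 (Entrez 21333, chr6:7555061-7562978) averaged 135 ± 37.6 against 72.4 ± 24.5 CPM and was higher in 19 of 21 animals, with a log2 difference of 0.92 (SE 0.139). Pdyn and Tac1 passed with edgeR adjusted p-values of 2.61e-10 and 5.07e-07. Even the lowest prefrontal library held 35.8 CPM of Pdyn and 32.4 CPM of Tac1.

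Nts, whose peptide interacts with dopamine signalling, showed the widest positive difference. Nts (Entrez 67405, chr10:102481756-102490418) averaged 24.7 ± 9.47 CPM in the striatum and 5.44 ± 3.59 CPM in the prefrontal cortex and was higher in the striatum in 21 of 21 animals. The log2 difference was 2.20 (SE 0.218, edgeR adjusted p = 5.23e-11), although prefrontal values ran from 0.998 to 14.9 CPM and overlapped the striatal range of 7.13 to 50.7 CPM. Cartpt, precursor of peptides that act on feeding and reward circuits (Entrez 27220, chr13:99898483-99910179), averaged 19.8 ± 7.29 against 10.8 ± 2.75 CPM and was higher in 18 of 21 animals (log2 difference 0.91, SE 0.139, edgeR adjusted p = 5.12e-07).

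The interneuron and cortical peptides Vip, Cck and Npy were lower in the striatum in 21 of 21 animals each. Vip, vasoactive intestinal peptide (Entrez 22353, chr10:5639193-5647617), averaged 7.73 ± 4.36 CPM in the striatum and 35.5 ± 7.29 CPM in the prefrontal cortex, with no overlap (2.35 to 18.8 against 22.8 to 52.1 CPM) and a log2 difference of -2.30 (SE 0.151, edgeR adjusted p = 5.62e-16). Cck, cholecystokinin (Entrez 12424, chr9:121489824-121495694), averaged 71.1 ± 56.2 against 339 ± 77.2 CPM, a log2 difference of -2.38 (SE 0.207, edgeR adjusted p = 2.9e-12). The striatal SD of Cck was nearly as large as its mean, with libraries from 19.4 to 254 CPM. Npy, neuropeptide Y (Entrez 109648, chr6:49822710-49829507), averaged 38.6 ± 8.86 against 65.4 ± 17 CPM, a log2 difference of -0.74 (SE 0.102, edgeR adjusted p = 5.59e-08).

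Sst and Crh did not pass. Sst, somatostatin (Entrez 20604, chr16:23889573-23891342), averaged 232 ± 56.9 CPM in the striatum and 256 ± 47.2 CPM in the prefrontal cortex, a log2 difference of -0.15 (SE 0.0808, edgeR adjusted p = 0.109). Sst is made with Npy by one class of striatal interneuron, yet only Npy passed here; the difference between the 2 genes was not tested. Crh (Entrez 12918, chr3:19693401-19695396) averaged 10.2 ± 2.67 against 8.72 ± 2.38 CPM, a log2 difference of 0.20 (SE 0.11, edgeR adjusted p = 0.112). Both calls rested on single animals. Crh passed without vehicle animal 8 (0.31, adjusted p = 0.0141), and Sst passed without 6 mg/kg animal 54 (-0.20, adjusted p = 0.0222) or 1 mg/kg animal 50 (-0.19, adjusted p = 0.0435). With the 10 libraries highest in the other region's markers left out, a choice made after seeing the data, all 10 members passed, Sst at -0.23 (adjusted p = 0.0429) and Crh at 0.41 (adjusted p = 0.00224).

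**Figure D2:**
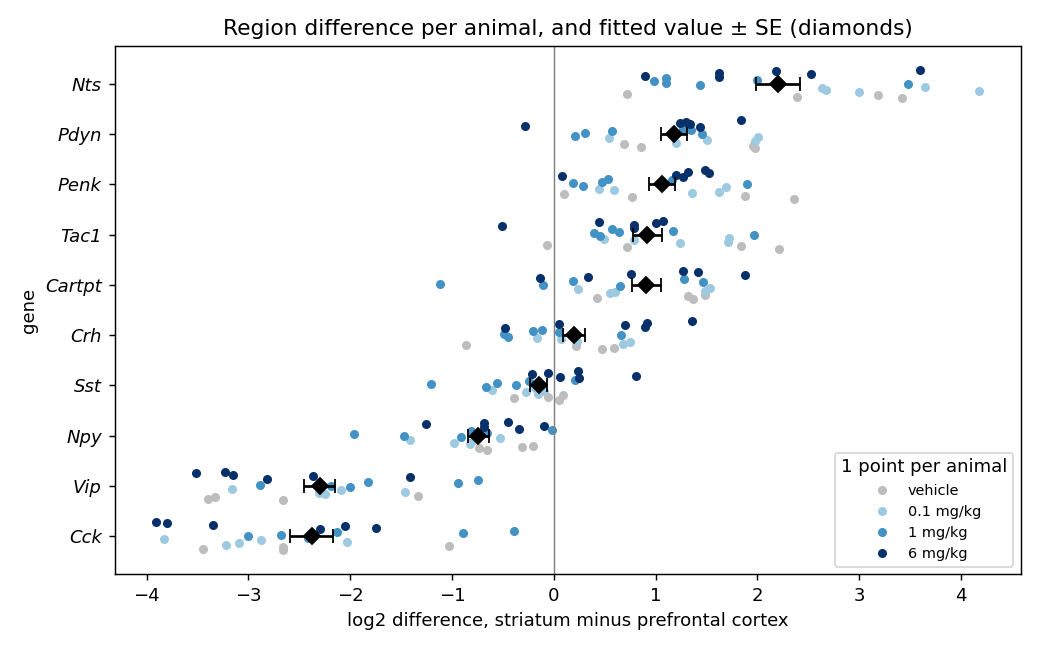
Log2 difference of striatum minus prefrontal cortex for each gene. Each point is 1 animal, coloured by dose, and diamonds with bars are the fitted difference and its standard error. Points of Nts and Penk all lie above 0, and those of Npy, Vip and Cck all lie below 0.

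Receptors of these peptides were read from a list of 22, of which 21 were tested between regions. In the striatum 8 were higher and 11 lower, where 56.1% of all genes passed, with a median of -0.22 on the log2 scale against 0.01 over all genes. Of the 8 higher, Cckar, Sstr5 and Vipr2 passed the filter on low counts only through the striatum, so their calls follow from that choice and their folds are not given. Of the cholecystokinin receptors, Cckbr fell with Cck from 70 ± 10.1 CPM in the prefrontal cortex to 22.3 ± 13.5 CPM in the striatum (log2 difference -1.70, SE 0.152, edgeR adjusted p = 3.44e-12), while Cckar stood at 0.207 to 7.59 CPM in the striatum and at 0 to 6 counts per prefrontal library (median 1, with 7 of 21 libraries at 0). Of the somatostatin receptors, Sstr3 (-1.56, SE 0.0966) and Sstr2 (-1.54, SE 0.106) were lower in the striatum, with edgeR adjusted p-values of 2.62e-17 and 9.86e-16, and Sstr5 stood at 0.973 to 5.97 CPM there and at 0 to 9 counts per prefrontal library (median 2). Of the tachykinin receptors, the 2 that were tested were higher, Tacr3, the neurokinin B receptor, by 2.16 (SE 0.162, edgeR adjusted p = 8.3e-15) and Tacr1, named after its values were seen, by 1.24 (SE 0.124, edgeR adjusted p = 3.12e-11).

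Among 19 tested genes of 30 other neuropeptides, 9 were higher and 6 lower in the striatum, against the same 56.1% of all genes, with a median of 0.17. Of the higher genes, Gal, Pmch and Hcrt passed the filter on low counts only through the striatum. Of the lower, Ucn and Nmb passed it only through the prefrontal cortex. Their calls follow from that choice, and the counts and the median include them. Oxt and Avp, hormones of the hypothalamus, had wide differences. Pomc, on the same list, differed by 0.74 (SE 0.275, edgeR adjusted p = 0.0202). Oxt (oxytocin) averaged 84.3 ± 86.6 CPM in the striatum and 1.66 ± 1.87 CPM in the prefrontal cortex (log2 difference 5.80, SE 0.639, edgeR adjusted p = 1.19e-09), and Avp (vasopressin) 51.5 ± 67.1 against 2.02 ± 2.17 CPM (4.66, SE 0.652, edgeR adjusted p = 1.7e-07). For Oxt and Avp the striatal SD exceeded the mean, and prefrontal libraries held 0 to 64 and 0 to 86 counts. Gal (galanin) stood at 0.826 to 19 CPM in the striatum and at 0 to 10 counts per prefrontal library (median 1, with 8 of 21 at 0); it passed the filter only through the striatum, and no fold is given. Summed markers of septum, pallidum, thalamus and hypothalamus neurons, a list that itself holds Avp and Oxt, were 256 to 1133 CPM in the striatum and 166 to 226 CPM in the prefrontal cortex; their part in these differences was not tested. Cort (cortistatin, a relative of somatostatin, -2.16, SE 0.229) and Grp (gastrin-releasing peptide, -0.83, SE 0.215) were lower in the striatum, with edgeR adjusted p-values of 1.14e-10 and 0.00103. Ucn (urocortin) held 1 to 16 counts per prefrontal and 0 to 4 per striatal library.

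No member passed in any dose comparison, in either region. In the prefrontal cortex, where 14838 genes were tested with edgeR, 0 of 10 members passed at 6 mg/kg against vehicle (0% of all genes passed), at 1 mg/kg against vehicle (0%), at 0.1 mg/kg against vehicle (0%), at 6 against 0.1 mg/kg (0.108%) and in the slope over dose rank (0.0202%). In the striatum, over 15118 genes, 0 of 10 passed at 6 mg/kg against vehicle (0%), at 1 mg/kg against vehicle (0%), at 0.1 mg/kg against vehicle (0%), at 6 against 0.1 mg/kg (2.91%) and in the slope over dose rank (0%). In the test of whether the effect of 6 mg/kg differed between regions, 0 of 10 members passed and 0% of 15402 genes did. DESeq2 called 0 members in each of these, without an adjusted p at 6 mg/kg for Crh, Cartpt and Nts in the prefrontal cortex and for Crh and Vip in the striatum. With 0% to 2.91% of all genes passing, 0 of 10 is near the background.

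At an unadjusted p under 0.05, the prefrontal members gave 1 gene at 1 mg/kg (8.29% of all genes) and 0 at 6 mg/kg (9.27%), at 0.1 mg/kg (6.43%), at 6 against 0.1 mg/kg (10.1%) and in the slope (9.79%). The striatal members gave 1 gene at 6 mg/kg (15.7% of all genes), 2 at 1 mg/kg (7.36%), 1 at 0.1 mg/kg (2.53%), 1 at 6 against 0.1 mg/kg (22.3%) and 0 in the slope (13.1%). The interaction gave 0 (6.85% of all genes). At 6 mg/kg against vehicle the 10 members had a median log2 difference of 0.12 in the prefrontal cortex, from -0.09 to 0.28, and of 0.02 in the striatum, from -0.37 to 0.49, against 0.00 and 0.01 over all genes.

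Vehicle libraries of the prefrontal cortex spanned much of the range of the opioid and tachykinin precursors of projection neurons. Penk stood at 209, 310, 369 and 593 CPM in the vehicle libraries and at 317 to 578 CPM at 6 mg/kg (median 421, n = 6). The groups overlapped, and the log2 difference was 0.20 (SE 0.27, edgeR adjusted p = 0.868). Tac1 stood at 35.6, 44.9, 60.2 and 123 CPM in vehicle and at 54.3 to 120 CPM at 6 mg/kg (median 80.3), a log2 difference of 0.28 (SE 0.302, edgeR adjusted p = 0.821). Vehicle animal 8 was the highest for both genes, and without it their differences were 0.53 and 0.77, with edgeR adjusted p-values that still did not pass (0.624 and 0.496), whereas without vehicle animal 3 they were 0.01 and 0.07. The library of animal 8 also had the highest sum of striatal projection neuron markers in the prefrontal cortex, 5860 CPM. With scores of striatal and cortical markers as covariates, chosen after seeing the data, the differences at 6 mg/kg were 0.09 for Penk (SE 0.128, edgeR adjusted p = 0.839) and 0.15 for Tac1 (SE 0.139, edgeR adjusted p = 0.726).

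In the striatum, Penk stood at 665 to 1209 CPM in vehicle (median 908, n = 4) and 652 to 1239 CPM at 6 mg/kg (median 1011, n = 6), a log2 difference of 0.12 (SE 0.219, edgeR adjusted p = 0.813). Pdyn stood at 103, 150, 165 and 181 CPM in vehicle and at 77.4 to 156 CPM at 1 mg/kg (median 105). The groups overlapped, with 2 vehicle libraries above every 1 mg/kg library, and the log2 difference at 1 mg/kg was -0.46 (SE 0.208, unadjusted p = 0.036, edgeR adjusted p = 0.675). At 6 mg/kg Pdyn ran from 88.3 to 158 CPM (median 121), a log2 difference of -0.30 (SE 0.209, edgeR adjusted p = 0.485). Tac1 differed by -0.14 at 1 mg/kg (SE 0.233, edgeR adjusted p = 0.896) and by -0.19 at 6 mg/kg (SE 0.233, edgeR adjusted p = 0.711).

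Crh in the striatum had the smallest unadjusted p of the members at 6 mg/kg. It stood at 7.88, 8.4, 8.96 and 9.65 CPM in the vehicle libraries, at 9.28, 11.8, 12, 12.1 and 14.3 CPM at 0.1 mg/kg, at 6.69 to 12.3 CPM at 1 mg/kg (median 8.54) and at 6.97 to 16 CPM at 6 mg/kg (median 12.6). The vehicle values were tight, all but 1 of the 0.1 mg/kg and of the 6 mg/kg libraries lay above them, and the 1 mg/kg values spread on both sides. The log2 difference was 0.49 at 6 mg/kg (SE 0.196, unadjusted p = 0.0193, edgeR adjusted p = 0.249), 0.45 at 0.1 mg/kg (SE 0.202, unadjusted p = 0.0378, edgeR adjusted p = 1) and 0.03 at 1 mg/kg (SE 0.197, edgeR adjusted p = 0.978). These levels rest on 62 to 139 counts per library. Prefrontal Crh differed by -0.08 at 6 mg/kg (SE 0.243), and the test of the difference between regions gave 0.56 (SE 0.323, edgeR adjusted p = 0.727).

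Vip in the striatum had the smallest unadjusted p of any member in any dose comparison. It stood at 2.41, 2.86, 7.07 and 9.37 CPM in vehicle and at 6.94 to 19.5 CPM at 1 mg/kg (median 9.09), a log2 difference of 1.14 (SE 0.399, unadjusted p = 0.00907, edgeR adjusted p = 0.675). The groups overlapped, and the 1 mg/kg animals 46 and 50 were highest with 18.3 and 19.5 CPM. Cck had the same 2 animals on top at 1 mg/kg, with 178 and 264 CPM against 50.4 to 88.7 CPM in the other libraries of that group and 25, 49, 53 and 134 CPM in vehicle (log2 difference 0.91, SE 0.554, edgeR adjusted p = 0.716). Animal 50 also had the highest sum of cortical excitatory neuron markers in the striatum, 3585 CPM, and the 1 mg/kg group ran from 1217 to 3585 CPM (median 1851) against 959 to 2384 CPM in vehicle (median 1771). With the same marker scores as covariates, the 1 mg/kg differences were 0.68 for Vip (SE 0.268, edgeR adjusted p = 0.218) and 0.19 for Cck (SE 0.245, edgeR adjusted p = 0.722). Other settings moved them up: a GC slope of each library as covariate, described further on, gave 1.49 for Vip (unadjusted p = 0.00121, edgeR adjusted p = 0.93) and 1.55 for Cck (unadjusted p = 0.0074, edgeR adjusted p = 1), and 1 surrogate variable gave 1.22 and 1.03. Leaving out 1 library at a time moved Vip from 0.90 (without vehicle animal 4) to 1.54 (without vehicle animal 8) and Cck from 0.53 (without 1 mg/kg animal 50) to 1.53 (without vehicle animal 8).

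Cck in the prefrontal cortex stood at 259, 260, 293 and 315 CPM in vehicle and at 314 to 541 CPM at 1 mg/kg (median 349). The groups met at their edges, and the log2 difference of 0.42 (SE 0.179, unadjusted p = 0.0279) had an edgeR adjusted p of 0.588. Npy differed by 0.40 at that dose (SE 0.196, edgeR adjusted p = 0.588). Animal 45 was highest for both, with 541 CPM of Cck and 114 CPM of Npy, and without it the differences were 0.29 and 0.21. They were 0.30 and 0.22 with the GC slope as covariate, 0.38 and 0.40 with the marker scores, and 0.16 (SE 0.123) and 0.05 (SE 0.0845) with 1 surrogate variable. At 6 mg/kg Cck and Npy differed by 0.13 each (SE 0.178 and 0.196). Prefrontal Sst differed by -0.00 at 6 mg/kg (SE 0.146). Striatal Sst differed by 0.27 (SE 0.175) and stood at 172, 221, 259 and 295 CPM in vehicle and 226 to 437 CPM at 6 mg/kg (median 265). Without 6 mg/kg animal 54, the highest, the striatal difference of Sst was 0.11. It was 0.00 with the GC slope as covariate, 0.38 with 1 surrogate variable (unadjusted p = 0.0253, edgeR adjusted p = 0.218) and 0.43 with the marker scores (unadjusted p = 0.0126, edgeR adjusted p = 0.121).

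Nts and Cartpt complete the list. Nts in the prefrontal cortex stood at 1.99, 2.27, 4.21 and 14.5 CPM in vehicle and 2.39 to 12.3 CPM at 6 mg/kg (median 5), on as few as 9 counts in a library, with a log2 difference of 0.04 (SE 0.539). That difference turned with single libraries, to -0.32 without 6 mg/kg animal 53 and to 1.05 without vehicle animal 8. In the striatum its vehicle libraries stood within 23.4 to 25.3 CPM, while those at 0.1 mg/kg ran from 22.3 to 52.7 CPM (0.51, SE 0.293, edgeR adjusted p = 1). Cartpt differed by 0.11 at 6 mg/kg in the prefrontal cortex (SE 0.211) and by -0.16 in the striatum (SE 0.324). The striatal value turned with the setting, to -0.36 without vehicle animal 4, 0.08 without vehicle animal 8, -0.54 with the GC slope, and 0.15 with 1 surrogate variable and with the marker scores. The standard errors at 6 mg/kg, from 0.146 to 0.539 in the prefrontal cortex and from 0.175 to 0.544 in the striatum, bound what these groups could show.

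**Figure D3:**
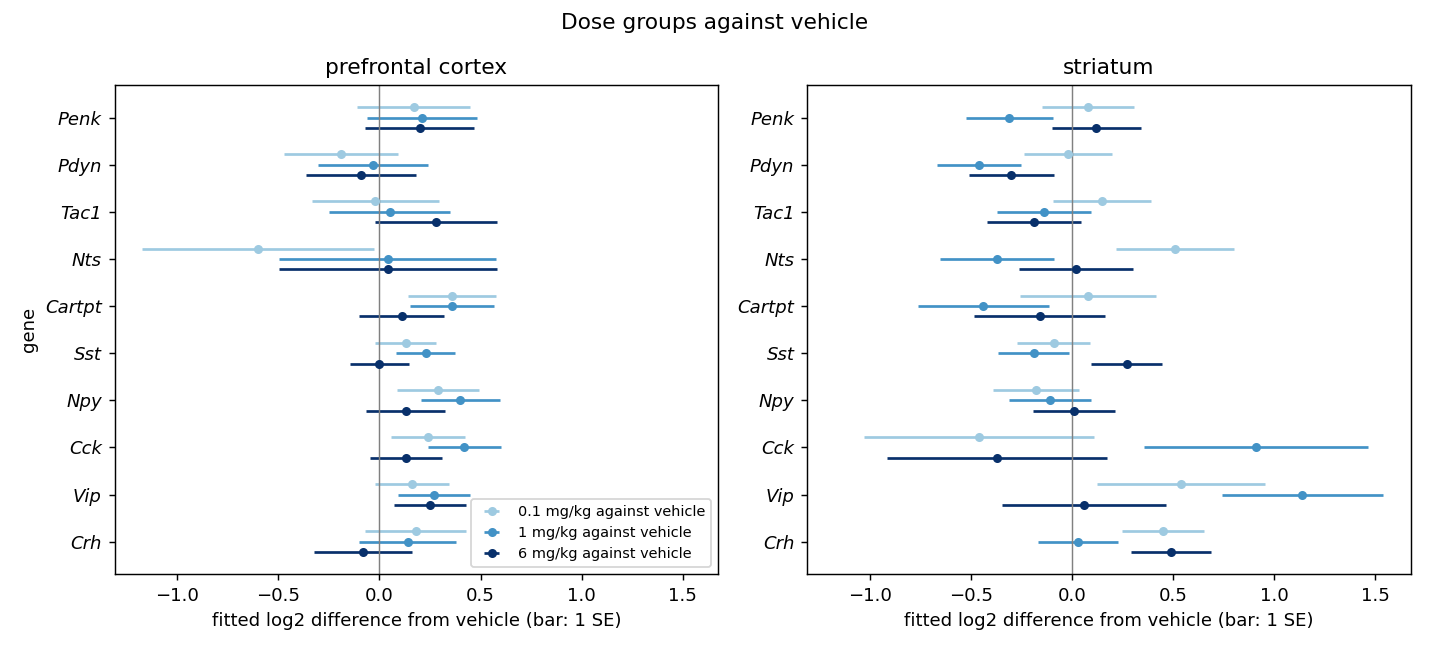
Fitted log2 difference of each dose group from vehicle for each gene, with bars of 1 standard error, in the prefrontal cortex (left) and the striatum (right). No difference passed; those of Cck and Vip in the striatum at 1 mg/kg are 0.91 and 1.14.

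Of the receptor list, 0 of 18 tested passed at 6 mg/kg against vehicle in the prefrontal cortex and 0 of 21 in striatum, with 6 at an unadjusted p under 0.05 in either region, where 9.27% of all prefrontal and 15.7% of all striatal genes reached that level. Ntsr2, a neurotensin receptor of astrocytes, had the smallest p in both regions, at 0.33 (SE 0.0861, edgeR adjusted p = 0.242) and 0.44 (SE 0.0961, edgeR adjusted p = 0.208). It was the only receptor that passed at 6 against 0.1 mg/kg in the striatum, where it rose by 0.39 (SE 0.0896, edgeR adjusted p = 0.0345), with a mean of 136 ± 9.53 CPM for the lower dose (SD, n = 5) and of 177 ± 23 CPM for the higher (SD, n = 6). Summed astrocyte markers were 2669 to 3298 CPM at 0.1 mg/kg and 1867 to 2949 CPM at 6 mg/kg there; their part was not tested. Of 21 genes of peptide processing and secretory granules, 0 passed at 6 mg/kg against vehicle in either region (4 prefrontal and 5 striatal genes at an unadjusted p under 0.05), and 2 passed at 6 against 0.1 mg/kg in the striatum, where 2.91% of all genes did. Pcsk1, a prohormone convertase, fell from 36.5 ± 4.6 to 22.7 ± 4.88 CPM (-0.68, SE 0.152, edgeR adjusted p = 0.0322), and Pcsk1n, which encodes its inhibitor proSAAS, rose from 1210 ± 207 to 1943 ± 553 CPM (0.68, SE 0.169, edgeR adjusted p = 0.036). Against vehicle at 6 mg/kg Pcsk1 differed by -0.54 (SE 0.161, edgeR adjusted p = 0.208). Furin, another convertase, had the smallest p of the list in the prefrontal cortex at 6 mg/kg (-0.32, SE 0.108, edgeR adjusted p = 0.378).

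Of the other neuropeptides, 0 of 16 passed at 6 mg/kg against vehicle in the prefrontal cortex and 0 of 18 in striatum (0 at an unadjusted p under 0.05 in both), with Grp differing by -0.49 in prefrontal tissue (SE 0.261, edgeR adjusted p = 0.578) and Edn3 by 0.41 in striatal tissue (SE 0.222, edgeR adjusted p = 0.365). Of 22 activity-regulated genes, among which many CREB targets stand, 0 passed at 6 mg/kg against vehicle, with medians of -0.33 and -0.60 against 0.00 and 0.01 over all genes. At 0.1 mg/kg against vehicle 0 passed, with medians of 0.36 in prefrontal and -0.10 in striatal tissue. At an unadjusted p under 0.05 the prefrontal list gave 6 genes at 6 mg/kg (9.27% of all genes), 1 at 1 mg/kg (8.29%), 6 at 0.1 mg/kg (6.43%), 17 at 6 against 0.1 mg/kg (10.1%) and 10 in the slope (9.79%). The striatal list gave 12 (15.7%), 6 (7.36%), 1 (2.53%), 13 (22.3%) and 16 (13.1%) in the same order. At 6 against 0.1 mg/kg 1 was lower in the prefrontal cortex (0.108% of all genes passed), Fosb (-1.14, SE 0.187, edgeR adjusted p = 0.00894), and 3 were lower in the striatum (2.91%), with Inhba (-0.97, SE 0.237, edgeR adjusted p = 0.0355) and Fosl2 (-1.23, SE 0.317, edgeR adjusted p = 0.0432) the smallest p-values; Homer1, the third, is named because it completes the count. The members at that comparison had medians of -0.04 in prefrontal and -0.10 in striatal tissue.

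The 7 listed genes that passed at 6 against 0.1 mg/kg were checked against a property of the libraries. The GC slope of a library is Spearman's rho across genes between GC content and the gene's deviation of log2 CPM from its mean over the region's libraries. In the striatum it was -0.324 to -0.0272 at 0.1 mg/kg and 0.291 to 0.432 at 6 mg/kg, with no overlap, and -0.41 to 0.392 in vehicle. In the prefrontal cortex, the region of the Fosb call, the groups overlapped, with -0.374 to 0.417 at 0.1 mg/kg and -0.59 to 0.261 at 6 mg/kg. With that slope as a covariate, 3 striatal genes passed in place of 440 and 4 prefrontal genes in place of 16, and none of the 7 passed. Since the slope did not overlap between the striatal groups compared, slope and dose cannot be told apart there by this fit. The differences of Pcsk1 (-0.69), Ntsr2 (0.44), Fosl2 (-1.60), Inhba (-0.72), Homer1 (-0.49) and, in the prefrontal cortex, Fosb (-1.04) kept their direction, with edgeR adjusted p-values of 0.40, 0.362, 0.362, 0.538, 0.532 and 0.0795, while Pcsk1n differed by 0.24 (SE 0.171, edgeR adjusted p = 0.674). Each call was also lost when certain single libraries were left out. Of 11 such fits, Fosb passed in 8, Pcsk1 in 6, Ntsr2 in 5, Pcsk1n and Inhba in 4 each and Fosl2 and Homer1 in 2 each. The striatal calls were all lost without 6 mg/kg animal 54 or 55 and without 0.1 mg/kg animal 23, 25 or 29, and Fosb was lost without 6 mg/kg animal 58 or 0.1 mg/kg animal 28 or 29. The differences themselves kept their direction in all these fits, from -1.30 to -1.03 for Fosb, -1.32 to -1.09 for Fosl2, -1.13 to -0.74 for Inhba, -0.67 to -0.47 for Homer1, -0.80 to -0.62 for Pcsk1, 0.51 to 0.77 for Pcsk1n and 0.33 to 0.43 for Ntsr2. These checks were added after seeing the data.

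No gene of the 9 cell type marker lists passed at 6 mg/kg against vehicle with edgeR. The smallest p-values of these lists belonged in prefrontal tissue to Foxp1 (0.28) for striatal projection neurons, Neurod2 (-0.38) for cortical excitatory neurons, Lamp5 (0.41) for interneurons, Dgkg (-0.34) for other forebrain neurons, S100b (0.25) for astrocytes, P2ry12 (0.24) for microglia, Ttr (1.20) for choroid plexus and Hba-a1 (-2.20) for blood and vessels, as log2 differences. In striatal tissue they belonged, in the same order, to Sp9 (0.22), Foxp2 (-0.44), Th (0.55), Dgkg (-0.41), Aldh1l1 (0.24), C1qa (0.42), Folr1 (1.83) and Hba-a1 (-1.31), and for oligodendrocytes to Mag (0.49). Vehicle animal 8 stood high for the blood and vessel markers, which summed to 724 CPM against 160 to 216 CPM in the other prefrontal vehicle libraries and to 685 against 199 to 275 CPM in the striatal ones. The edgeR adjusted p-values of the named markers ran from 0.378 to 0.706 in prefrontal and from 0.208 to 0.525 in striatal tissue.

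Within a region the members varied more between libraries of a dose group than most genes. The within-group SD of log2 CPM was 0.929 for Nts in the prefrontal cortex, larger than in 99.7% of genes, and 0.878 for Cck in the striatum, larger than in 98.6%. The median over all genes was 0.224 for prefrontal and 0.238 for striatal libraries, and all 10 members lay above it in both regions. Sst was nearest to it, with 0.249 and 0.292. Nts spanned 15 times from its lowest to its highest prefrontal library, and Cck 13.2 times in the striatum.

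Part of this variation was shared between members. Deviations of log2 CPM from the dose group means were correlated over the 21 libraries of a region for each of the 45 pairs, with p-values from permutations within dose groups and Benjamini-Hochberg adjustment over the 45. The prefrontal libraries gave 19 pairs with an adjusted p under 0.05, 15 positive and 4 negative, with raw p-values of 1e-05 to 0.0203. The striatal libraries gave 9, all positive, with raw p-values of 1e-05 to 0.00577. By Spearman's rho 13 and 7 passed, and 7 pairs passed in both regions by Pearson's r. Many genes moved together in these libraries. The smallest r that passed, 0.483 in size, was reached by 21 of the 45 member pairs (46.7%) and by 19.1% of all pairs of the 14838 prefrontal genes, and in the striatum 0.607 was reached by 9 member pairs (20%) and by 6.83% of all pairs of 15118 genes.

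The first block held the projection neuron peptides. Penk and Tac1 in the prefrontal cortex had r = 0.922 (rho = 0.862, permutation p = 1e-05, the smallest the draws can give, adjusted p = 0.000225), and r was 0.874 without the 2 libraries farthest from the median of Penk. Penk and Pdyn had r = 0.868 (rho = 0.913, adjusted permutation p = 0.00027) and Pdyn and Tac1 0.876 (rho = 0.847, adjusted permutation p = 0.00027). Nts belonged to this block there, with r = 0.784 to Penk, 0.869 to Pdyn and 0.858 to Tac1 (adjusted permutation p = 0.00075, 0.00045 and 0.00027). In the striatum Penk and Tac1 had r = 0.905 (rho = 0.886, adjusted permutation p = 0.0003) and Pdyn and Tac1 0.825 (rho = 0.732, adjusted permutation p = 0.0009). There Nts did not pass with any of the 3 (r = 0.238, 0.336 and 0.458) and instead passed with Cartpt (r = 0.615, rho = 0.56, adjusted permutation p = 0.0289), although without the 2 libraries farthest from the median of Cartpt that r was 0.405.

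The second block held the interneuron and cortical peptides, although not every pair of them passed. Sst and Vip did not pass in prefrontal or in striatal tissue (r = 0.375 and 0.469, adjusted permutation p = 0.158 and 0.16). Npy and Vip did not pass in the striatum (r = 0.414, adjusted permutation p = 0.179). Npy in the prefrontal cortex had r = 0.882 with Cck (rho = 0.925, adjusted permutation p = 0.000225), 0.833 with Sst (rho = 0.713, adjusted permutation p = 0.00075) and 0.693 with Vip (rho = 0.691, adjusted permutation p = 0.0032). Cck and Vip had r = 0.79 (rho = 0.72, adjusted permutation p = 0.00075). In the striatum Sst and Npy had r = 0.862 (rho = 0.888, adjusted permutation p = 0.0003) and Cck and Vip 0.837 (rho = 0.874, adjusted permutation p = 0.0003). Of that first striatal pair, Sst carries the full TGACGTCA shown earlier and Npy holds no TGACG in its window. Cck and Vip, the other striatal pair named, both hold TGACG in theirs. Whether the element bears on these correlations was not tested. Crh also passed with Penk, Nts, Pdyn and Sst in prefrontal tissue (r = 0.616, 0.613, 0.585 and 0.555, rho = 0.553, 0.522, 0.491 and 0.588), where by rho only the pair with Sst passed, and with no member in the striatum.

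Between the blocks, 4 prefrontal pairs were negatively correlated by Pearson's r. Of all pairs of the prefrontal genes tested, 9.51% had an r of -0.483 or below, so 4 of the 45 member pairs is near that share. Vip had r = -0.632 with Pdyn, -0.611 with Tac1 and -0.646 with Nts (rho = -0.482, -0.562 and -0.592, adjusted permutation p = 0.0341, 0.0341 and 0.0182), and Cck had r = -0.483 with Nts (rho = -0.469, adjusted permutation p = 0.0471). No negative pair passed in the striatum, where Vip and Penk had r = -0.335 (adjusted permutation p = 0.364). The pair across the blocks that passed there was positive, Pdyn and Npy with r = 0.607 (rho = 0.684, adjusted permutation p = 0.0289). Without the 2 libraries farthest from the median of Pdyn, the r of Vip and Pdyn was -0.337. By rho only Vip and Nts passed (adjusted p = 0.0357), while the other 3 pairs had adjusted p-values of 0.0965, 0.0505 and 0.0851.

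**Figure D4:**
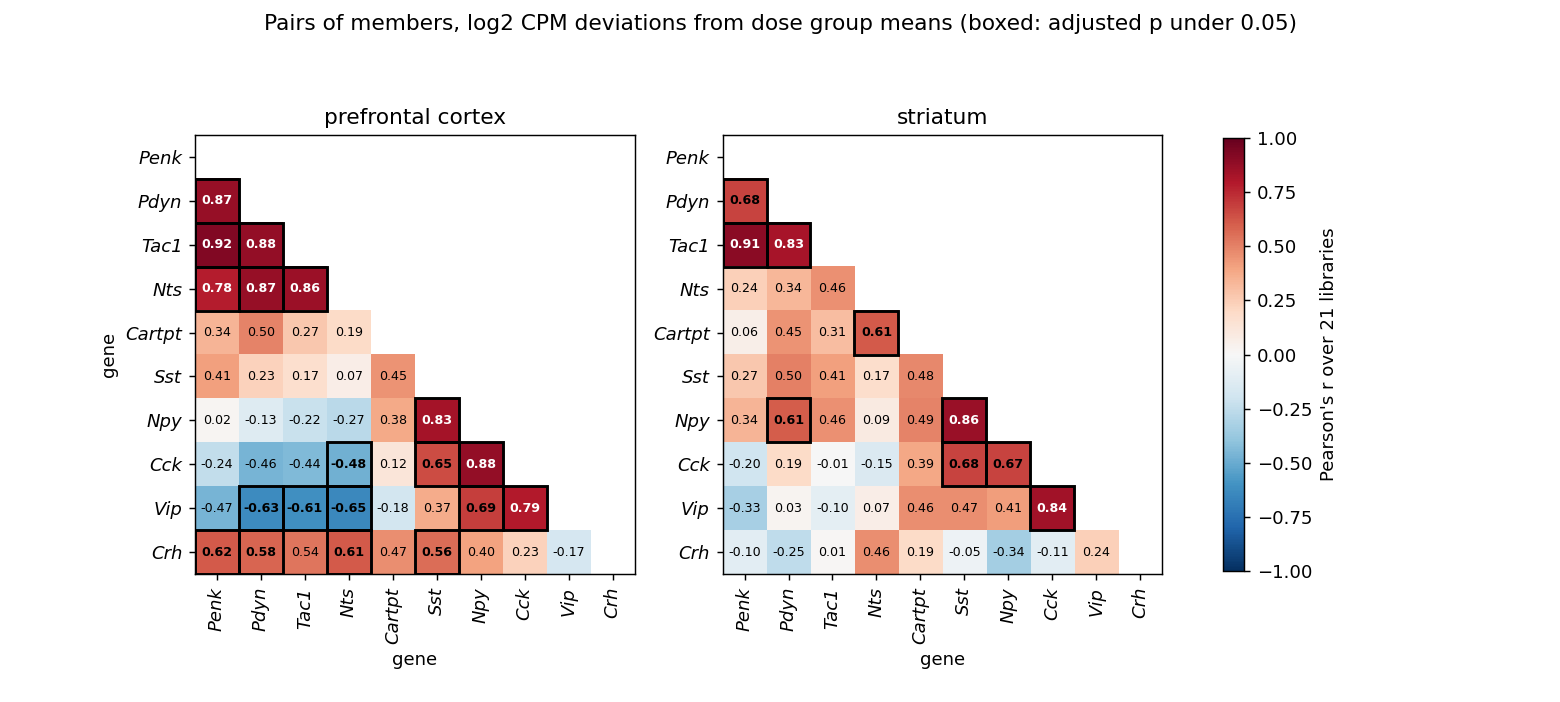
Pearson's r for each pair of genes over 21 libraries of the prefrontal cortex (left) and of the striatum (right), from deviations of log2 CPM from dose group means. Boxes mark adjusted permutation p-values under 0.05, and values run from -0.65 to 0.92 in the prefrontal cortex.

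Members of both blocks moved with markers of cell types in the same libraries. Scores of 9 marker lists (means of each gene's log2 CPM deviation, none holding a member) gave 90 relations per region, adjusted together, of which 28 passed in prefrontal and 16 in striatal libraries (raw p-values of 1e-05 to 0.0136 and 2e-05 to 0.00852). The same relations were not computed over all genes, so these counts are not shown to be particular to the members. The prefrontal score of striatal projection neurons had r = 0.87 with Penk (rho = 0.801), 0.892 with Tac1 (rho = 0.808), 0.728 with Pdyn (rho = 0.747) and 0.681 with Nts (rho = 0.687), with adjusted permutation p-values of 0.00259, 0.0009, 0.0063 and 0.0112. Without the 2 libraries farthest from the median of the score these were 0.73, 0.819, 0.63 and 0.566. The score of cortical excitatory neurons ran the other way, with r = -0.655, -0.594, -0.731 and -0.735 in the same order (rho = -0.788, -0.61, -0.753 and -0.701, adjusted permutation p = 0.00675, 0.0184, 0.00259 and 0.00465). Other scores related to these 4 genes about as closely. That of oligodendrocytes had r = 0.795, 0.803, 0.725 and 0.792 in the same order, that of GABA interneurons 0.742, 0.821, 0.879 and 0.758, and that of septum, pallidum, thalamus and hypothalamus neurons 0.607, 0.64, 0.845 and 0.70, with adjusted permutation p-values of 0.00259 to 0.0126. The GABA interneuron score ran against Cck and Vip (r = -0.659 and -0.635, adjusted permutation p = 0.0285 and 0.0372) in the prefrontal cortex and against Npy in the striatum (r = -0.705, adjusted permutation p = 0.0145). Of the 21 genes of that list, 16 were higher and 4 lower in the striatum between regions, where 56.1% of all genes passed. Their median log2 difference was 0.64, against 0.01 over all genes. Whether the score followed interneurons or striatal tissue was not tested. Sst and Npy passed with neither the striatal score (r = 0.0702 and -0.336) nor the cortical score (r = -0.153 and 0.156) in the prefrontal cortex, and passed there only with the microglia score (r = 0.621 and 0.588, adjusted permutation p = 0.042 and 0.0422). In the striatum the striatal score had r = 0.903 with Penk (rho = 0.904, adjusted permutation p = 0.0009) and 0.765 with Tac1 (rho = 0.723, adjusted permutation p = 0.00765). The cortical score there had r = 0.844 with Cck (rho = 0.851, adjusted permutation p = 0.00158), 0.698 with Npy (rho = 0.7, adjusted permutation p = 0.0227) and 0.651 with Vip (rho = 0.703, adjusted permutation p = 0.0318). Without the 2 libraries farthest from the median of each score, these 5 striatal values were 0.886, 0.754, 0.801, 0.632 and 0.566.

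Cartpt in the striatum followed other lists. It had r = -0.819 with the score of oligodendrocytes (rho = -0.817, adjusted permutation p = 0.00158) and -0.764 with that of choroid plexus (rho = -0.733, adjusted permutation p = 0.00675). Npy had r = -0.8 with the astrocyte score (rho = -0.847, adjusted permutation p = 0.0009). Pdyn had r = -0.81 with the score of septum, pallidum, thalamus and hypothalamus neurons (rho = -0.827, adjusted permutation p = 0.00198). With the striatal and cortical scores removed from both genes of a pair, a step added after seeing the data, 12 of the 19 prefrontal and 4 of the 9 striatal pairs still passed. The 4 negative prefrontal pairs were not among them (r of -0.372 to -0.0839, adjusted permutation p = 0.222 to 0.831), and Penk then had positive r with Sst, Npy and Cck (0.739, 0.745 and 0.636, adjusted permutation p = 0.00488, 0.00459 and 0.0209).

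Several members also moved with the slopes of the libraries in the prefrontal cortex, while in the striatum no member passed with either slope (smallest adjusted permutation p = 0.0546, Sst with the GC slope). A length slope was computed as the GC slope was, with transcript length in place of GC content, and the deviations of both slopes from their dose group means were used. Both slopes are drawn from all genes, and the share of all genes that followed them was not computed. Over the prefrontal libraries the length slope had r = -0.917 with Sst (rho = -0.909, adjusted permutation p = 0.0003), -0.884 with Npy (rho = -0.847, adjusted permutation p = 0.00075) and -0.708 with Cck (rho = -0.701, adjusted permutation p = 0.0134), whose longest transcripts have 721, 566 and 799 bases, the shortest of the 10. Without the 2 libraries farthest from the median slope, r was -0.894, -0.84 and -0.531. Crh, with 1320 bases, also passed (r = -0.575, rho = -0.59, adjusted permutation p = 0.0323). The GC slope passed with Sst (r = 0.776, rho = 0.751, adjusted permutation p = 0.0012) and Npy (r = 0.674, rho = 0.586, adjusted permutation p = 0.00998). Penk, Pdyn, Tac1 and Nts had r between -0.291 and -0.0418 with the length slope. With both slopes removed, chosen after seeing the data, 16 of the 19 prefrontal and 7 of the 9 striatal pairs still passed. The prefrontal r of Sst and Npy went from 0.833 to 0.107 and that of Sst and Cck from 0.651 to 0.0209, while Npy and Cck kept 0.778 and Penk and Tac1 0.948. The 4 negative pairs, with Vip and Pdyn, Tac1 and Nts and with Cck and Nts, then had r = -0.771, -0.748, -0.766 and -0.726. In the striatum Sst and Npy kept r = 0.733. The slopes are a description of the libraries, and what sets them was not tested.

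**Figure D5:**
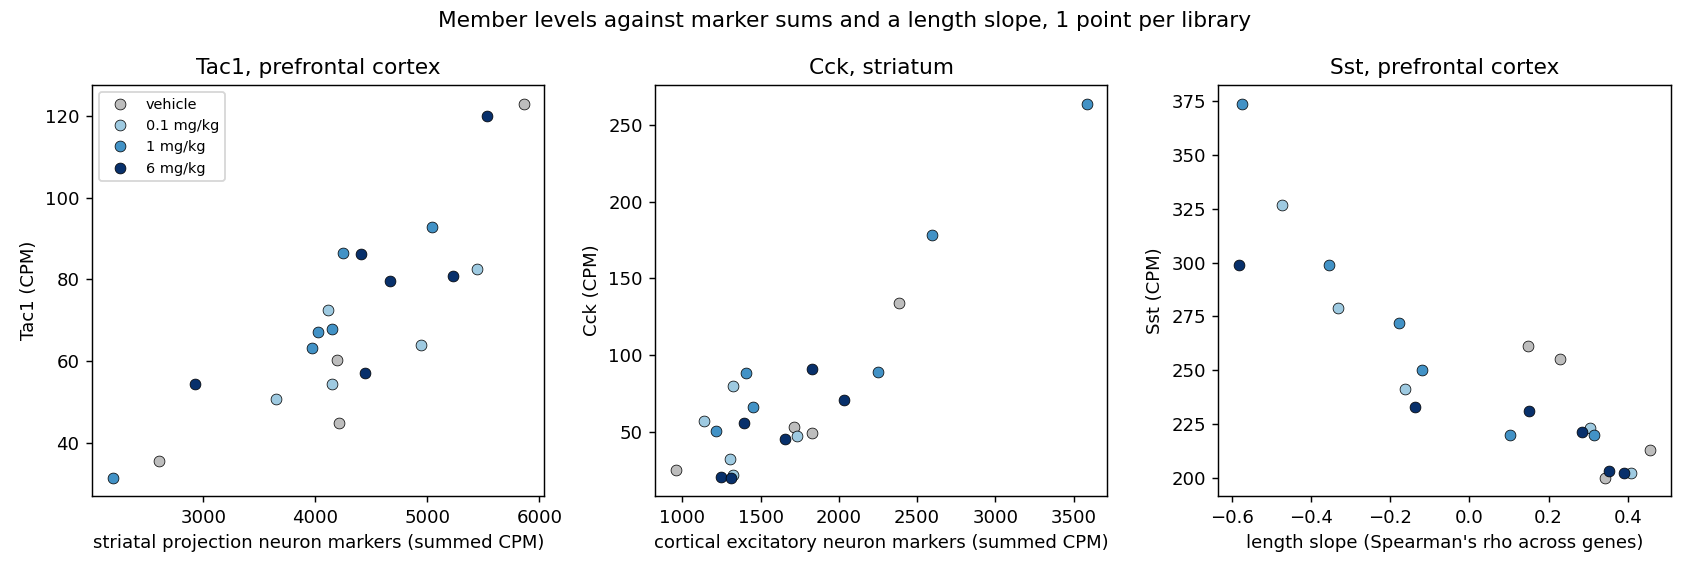
Tac1 in the prefrontal cortex against summed striatal projection neuron markers, Cck in the striatum against summed cortical excitatory neuron markers, and Sst in the prefrontal cortex against the length slope, with 1 point per library coloured by dose and levels in CPM. The library with 264 CPM of Cck has a cortical marker sum of 3585 CPM.

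Levels in the prefrontal cortex were compared with those in the striatum of the same number. Over 21 animals none of the 10 members passed, with r from -0.335 for Cartpt (rho = -0.306, permutation p = 0.18, adjusted p = 0.753) to 0.242 for Nts (rho = 0.292, permutation p = 0.301, adjusted p = 0.753). At an unadjusted p under 0.05 the count was 0 as well.

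Among all genes with at least 10 CPM, those whose deviations followed a member most closely are given as a description over 21 libraries, since they are the top of 10330 prefrontal and 10654 striatal genes. Penk was closest to Asic4 (r = 0.959) and Rgs9 (0.949) in the prefrontal cortex and to Rgs9 (0.971) and Pde1b (0.965) in the striatum. Tac1 was closest to Pde1b (0.948) and Six3 (0.942), and to Arpp21 (0.925) and Ywhaz (0.918). Pdyn was closest to Carhsp1 (0.88) and Slc32a1 (0.879), and to Filip1 (0.924) and Baiap2 (0.914). Rgs9, a regulator of G protein signalling abundant in striatal neurons, stood beside Penk in both regions.

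Sst was closest to Gpx4 (0.954) and Snx17 (0.943) in the prefrontal cortex and to Aldoa (0.928) and Abhd8 (0.919) in the striatum. Npy was closest to Nudt3 (0.965) and Arhgdig (0.956), and to Cabp1 (0.921) and Nat14 (0.92). Cck was closest to Arhgdig (0.918) and Tmem199 (0.915), and to Rtn4r (0.948) and 1110008P14Rik (0.906). For the low members the likeness was weaker. Vip reached 0.831 with Chn1 and Kifbp in the prefrontal cortex, Cartpt 0.799 with Rpp25 there and 0.835 with Ppme1 in the striatum, and in the striatum Crh reached 0.763 with AI854703 and Nts 0.807 with Pold3.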

How the data were processed

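RNA sequencing libraries of prefrontal cortex and striatum punches were analysed; the liver libraries were not used here. Per the labels' protocols, TRIzol lysis was followed by clean-up on RNeasy columns, and enrichment was by poly(A) capture or rRNA removal, which of them not being said. The authors deposited 1 table per region of whole-number read counts per Entrez gene; HISAT2, FastQC and build mm10 are named in the submitters' processing notes, while strand use, annotation and counting tool are not given in the sources used here. The smallest total of a listed gene was 10 counts in each table. Columns were matched to samples by title. Within a dose group no 2 libraries agreed within sampling noise (smallest chi-square per degree of freedom 4.84 for prefrontal and 2.94 for striatal pairs), so each counted as 1 replicate. The labels do not say that every library is a separate animal, so p-values measure the spread between these samples. The labels used here give no batch.

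The count model was that of edgeR 4.0.16 under R 4.3.3 (filterByExpr, TMM scaling, robust quasi-likelihood test), with all dose groups of a region in the fit, or all 42 libraries for the comparison of regions. Benjamini-Hochberg adjustment ran over all genes tested, and an adjusted p under 0.05 passed. Standard errors are the absolute log2 difference divided by the square root of F. CPM are TMM-scaled, and log2 CPM for correlations used a prior count of 2. Correlations used 100000 permutations within dose groups, two-sided. On simulated counts with 200 genes changed 2-fold, 82.5% were recovered at 6 mg/kg against vehicle among 14727 prefrontal genes (6.78% of calls false), 78% among 15012 striatal genes (5.45% false) and 94.5% between regions among 15244 genes (4.55% false). The simulation drew each gene independently, so variation that genes share across libraries was left out, and the changed genes were picked at random. Members varied more than most genes, so these shares do not give a recovery rate for them. Length and GC content, taken from each gene's longest transcript in GENCODE, covered 95.3% of tested prefrontal and 95.4% of striatal genes.

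Named were all 10 members. From each list (receptors, other neuropeptides, processing and granule genes, activity-regulated genes, cell type markers), the rule took per dose comparison and direction the 2 passing genes of smallest p and, where none passed in a region, the gene with the smallest p at 6 mg/kg against vehicle. Between regions it took the 3 passing receptors and other neuropeptides with the widest difference in each direction. Likeness used the 2 genes closest to each member averaging at least 10 CPM, and the text gives only the closer of them for Cartpt, Crh and Nts. Markers are also named as checks of the tissue labels. A single marker that the rule names is not reported here. The members and lists were chosen with earlier results of these data known. Alternatives were DESeq2 1.42.0, scaling by median-ratio size factors, leaving low genes in, requiring a mean of 10 counts, only the 2 groups compared, 1 surrogate variable from sva 3.50.0, the GC slope as a covariate, the slope on the mg/kg scale, a block for animal number, Spearman's rho, a prior count of 0.5, deviations from the mean of all libraries, and each replicate left out.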

Additional observations from a re-analysis of the deposited data

Results flagged for a closer look

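In 80 sets of 4 to 6 libraries (each gene in each region and dose group), 9 had a highest library far from the others by Dixon's criterion, where chance gives about 1 in 20, or 4. In the prefrontal cortex, animal 53 at 6 mg/kg stood apart for Pdyn, with 101 CPM and the next library at 54.1, and for Nts, with 12.3 CPM and the next at 5.72; this library also had the lowest cortical excitatory marker sum of the region, 3314 CPM. Animal 55 at 6 mg/kg stood apart for Sst, with 299 CPM and the next at 233, and for Npy, with 89.2 CPM and the next at 61.2. Animal 45 at 1 mg/kg stood apart for Npy, with 114 CPM and the next at 68.6, and for Cck, with 541 CPM and the next at 386. Animals 55 and 45 had the lowest length slopes of the prefrontal libraries, -0.582 and -0.574. Vehicle animal 8 stood apart for Crh, with 13.7 CPM and the next at 6.81. In the striatum, animal 48 at 1 mg/kg stood apart for Penk, with 1203 CPM and the next at 721, and had the highest striatal projection neuron marker sum of its group, 10175 CPM. Animal 54 at 6 mg/kg stood apart for Sst, with 437 CPM and the next at 294, and had the lowest length slope of the striatal libraries, -0.644.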

How the results depend on the processing

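The count of members passing was 0 in all 202 refits of the dose comparisons, those without each replicate in turn included, and 0 in all refits of the interaction. DESeq2 gave no adjusted p at 6 mg/kg for Crh, Cartpt or Nts in the prefrontal cortex and for Crh or Vip in the striatum, so these are missing from its counts. Between regions 8 members passed in every alternative planned, and 8 to 9 when each animal was left out; with the libraries highest in the other region's markers left out it was 10. With the animal number as a replicate block, 8 passed between regions, and Sst and Crh had log2 differences of -0.16 and 0.22 with edgeR adjusted p-values of 0.0545 and 0.089. Since the labels do not state that the number marks a mouse, the fit without the block was kept, and its p-values ignore that pairing. Over 14617 genes, deviations of the 2 regions of an animal had a mean correlation of 0.113 (range -0.0906 to 0.237), against -0.0233 for other numbers of the dose group. Of 21 animals, 12 correlated best with their own number. These values were not the ground for leaving out the block. The count of correlated pairs was 13 to 23 in the prefrontal cortex and 6 to 10 in the striatum over the alternatives, and 0 members correlated between regions under each. No called member value changed sign; of 2339 recomputed values that passed neither before nor after, 192 changed sign and 66 moved by more than a standard error, 27 of them without vehicle animal 8 and 20 with the GC slope as a covariate. In the striatum at 6 mg/kg, Cck differed by -0.37 in the main fit (SE 0.544) and by -1.04 with the GC slope as a covariate (SE 0.513, edgeR adjusted p = 0.441). Leaving out 1 library at a time turned its direction, from -0.63 without vehicle animal 4 to 0.25 without vehicle animal 8. The GC slope as a covariate also moved the number of all genes passing at 6 against 0.1 mg/kg with edgeR from 440 to 3 in the striatum and from 16 to 4 in the prefrontal cortex. The GC slopes of these doses did not overlap in the striatum, so slope and dose cannot be told apart there. Depth limits Nts in the prefrontal cortex, with 9 to 127 counts per library, and Vip in the striatum, with 25 to 222.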

Other observations

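The genes that process and store neuropeptides also differed between regions. Of 21 tested, 3 were higher and 12 lower in the striatum by edgeR's quasi-likelihood test, where 56.1% of all genes passed, and the following 4 were chosen after their values were seen. Chgb, a granule protein, averaged 235 ± 33.6 CPM in the striatum and 481 ± 58.4 CPM in the prefrontal cortex (SD, n = 21 each, log2 difference -1.04, SE 0.0546), and Pcsk2, a prohormone convertase, 304 ± 54.9 against 494 ± 42.6 CPM (-0.71, SE 0.0546). Scg2, the precursor of secretoneurin, was higher in the striatum, with 407 ± 77.4 against 231 ± 26 CPM (0.82, SE 0.0643), as was Qpct, glutaminyl cyclase, with 23.1 ± 3.73 against 10.6 ± 1.79 CPM (1.13, SE 0.0763).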
